A study of Mus musculus with 17 samples.

Results

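The Meg3, Rian and Mirg stretch is the maternally expressed noncoding part of the Dlk1-Dio3 imprinted domain on mouse chromosome 12. Its members here are all rows of the deposited tables whose position overlaps a window of 230 kb there, which gives 30 of 23940 rows, the first starting at position 110779206 and the last ending at 110987668. Noncoding transcripts were quantified by sequencing total RNA of 17 heart ventricle libraries of male C57Bl/6 mice, and each library holds 1 value per row. The right ventricle (RV) gave 3 libraries at postnatal day 0 (P0), 3 at day 3 (P3) and 2 at day 7 (P7). The left ventricle (LV) gave 3 libraries at each of these ages. All animals were untreated and of 1 strain and sex, the labels name biological replicates, and whole ventricle tissue holds several cell types.

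In this domain the maternal chromosome transcribes a run of noncoding RNAs, while the paternal chromosome expresses the coding genes Dlk1, Rtl1 and Dio3. Meg3 is a spliced nuclear long noncoding RNA, Rian carries many C/D box small nucleolar RNAs in its introns, and Mirg is the host transcript of a large microRNA cluster. Meg3, Rian and Mirg are read in 1 direction and are often regarded as parts of a shared maternal transcription unit. The domain is active in embryonic and fetal tissues, and in many of these its noncoding RNAs become less abundant after birth.

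The tables pair no gene names with the row IDs, so rows were placed by position alone. The 30 rows hold 10 distinct positions and form 8 blocks of overlapping rows. The first block runs from 110779206 to 110809939 and spans 30734 bases, which is the annotated span of Meg3 in the GRCm38 mouse genome. Annotated spans run from the outermost start to the outermost end that GENCODE and RefSeq give for a gene. GENCODE alone gives 30726 bases for Meg3, and RefSeq alone gives 57772 for Rian and 14478 for Mirg, so neither annotation fits all 3 blocks by itself. The fourth block, at 110842150 to 110899926, spans 57777 bases, the annotated span of Rian, and starts 32210 bases after the first ends, as Rian does after Meg3. The eighth block, at 110967974 to 110987668, spans 19695 bases, against 19697 annotated for Mirg (the GENCODE span), and follows the fourth after 68047 bases in both. These 3 blocks are called the Meg3, Rian and Mirg blocks below. Their positions are those of the tables, taken to be mm9, and none was converted. Several rows of a block share 1 start and end, so they can hold the same reads and are not independent measurements.

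The start of the stretch is shown because most of its signal lay in the Meg3 block. The RefSeq promoter window of Meg3 in GRCm38.p6 lies on the plus strand at chr12:109540746-109541045 and holds 250 bases before and 50 bases from the start. Of the 2 windows listed for Meg3, it is the one with the lower start. Capitals mark the matches to the motifs searched on both strands, namely CCAAT, the cAMP response element TGACGTCA, and TATAAA. The plus and minus strand matches to TATAAA overlap.
Meg3 promoter window: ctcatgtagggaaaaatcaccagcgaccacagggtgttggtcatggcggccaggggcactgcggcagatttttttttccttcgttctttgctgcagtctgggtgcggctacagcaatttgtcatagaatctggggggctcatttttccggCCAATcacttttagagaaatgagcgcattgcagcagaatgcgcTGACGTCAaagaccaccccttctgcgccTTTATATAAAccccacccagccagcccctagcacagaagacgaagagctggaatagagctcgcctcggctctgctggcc
The cAMP response element began 57 bases before the start and the CCAAT match 100 bases before it. The matches to TATAAA began 25 and 29 bases before the start, on the plus and the minus strand. Among 32851 mouse promoter windows of the same length, 1.79% held TGACGTCA, 37.4% held CCAAT and 13.6% held TATAAA. The Rian window held 0 matches to the 3 motifs and the Mirg window 1, to CCAAT. The Mirg window lies at the RefSeq start, at chr12:109734731-109735030, and holds miR-668 and miR-485-3p. The Mirg block follows the longer GENCODE span, which starts earlier, so this window is not the start of that block. The motif matches are matches of letters, and no binding was measured here.

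The stretch encodes many small RNAs, and the sequences below show microRNAs that it holds. RefSeq lists 105 distinct mature microRNA names on the plus strand between the Meg3 start and the Mirg end, and 8 seeds (bases 2 to 8) occur in more than 1 of them. The values further on are of long RNA rows, not of mature microRNAs. By RefSeq gene spans, 13 of 54 hairpins lie between Meg3 and Rian and 27 between Rian and Mirg. The longer GENCODE span of Mirg, which the Mirg block follows, starts earlier and takes in the last of those 27, from miR-382 to miR-485. Rows of the tables outside the 3 named blocks averaged 0.0119 FPKM or less. Of the pairs shown, the first 3 come from hairpins between Rian and Mirg, and the fourth from hairpins within Mirg. In the last pair, miR-494-5p comes from between Rian and Mirg and miR-410-5p from within Mirg. Capitals mark the seed.
miR-379-5p: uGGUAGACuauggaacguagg
miR-1193-5p: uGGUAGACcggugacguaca
miR-379-3p: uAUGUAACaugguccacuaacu
miR-411-3p: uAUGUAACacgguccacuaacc
miR-376b-5p: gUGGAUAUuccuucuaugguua
miR-376c-5p: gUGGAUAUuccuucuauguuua
miR-453: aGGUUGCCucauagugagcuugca
miR-496a-5p: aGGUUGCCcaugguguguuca
miR-494-5p: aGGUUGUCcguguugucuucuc
miR-410-5p: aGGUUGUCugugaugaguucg
Each pair shares its seed and differs in the bases after it.

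The level of the stretch was dominated by 1 row. NONMMUT015697, which spans the whole Meg3 block, averaged 4.49 FPKM over the 17 libraries and ranked 405 of the 23940 rows. FPKM, fragments per kilobase scaled to library depth, is inferred as the unit, as the tables name none. This row alone held 67.3% of the summed value of the stretch, with 58.7% to 82.6% in single libraries. The second, NONMMUT015710, has the same start and end, averaged 0.797 FPKM and held 10.9%. All other rows averaged 0.254 FPKM or less. Summed by block, the 11 Meg3 rows held 82.1% of the total, the 10 Rian rows 10.2% and the 3 Mirg rows 7.11%, as means over libraries.

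**Figure D1:**
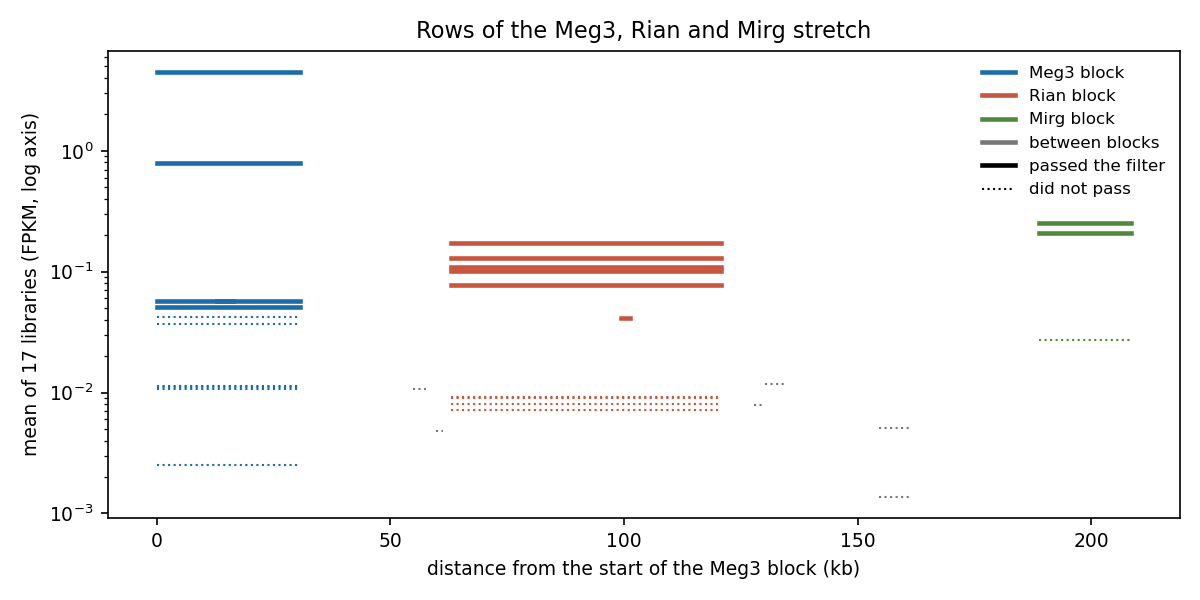
Mean FPKM over the 17 libraries (log axis) of each of the 30 rows against its position, in kb from the start of the Meg3 block. Solid bars are the 13 rows that passed the filter on low values and dotted bars the 17 that did not. The Meg3 block holds the 2 highest rows, at 4.49 and 0.797 FPKM, and the 6 rows outside the 3 named blocks lie at 0.0119 or below.

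Of the 30 rows, 13 reached the filter for testing, at least 0.1 FPKM in at least 2 libraries. They were 5 of 11 Meg3 rows, 6 of 10 Rian rows and 2 of 3 Mirg rows. The other 17 rows had means of 0.00138 to 0.0424 FPKM and a highest single value of 0.181. Among them were all 6 rows of the 5 blocks that lie outside the 3 named ones, with means of 0.00138 to 0.0119 FPKM and a highest single value of 0.0822. At an implied depth of 13.8 to 20.5 M fragments per library, such values rest on very few fragments. A row of low level can pass the filter through the age at which it is high, so counts over the 13 rows describe those rows and not the whole stretch. Outside the stretch, the 170 kb before it on the Dlk1 side held 0 rows. The 600 kb after it on the Dio3 side held 1, NONMMUT015878 at chr12:111086628-111089482, which was above 0 in 1 library, at 0.0199 FPKM. The coding genes of the domain were not analysed here.

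Summed over its 30 rows, the stretch was lower at P7 than at P0, by 51.3% in the RV and 52.9% in the LV. In the RV the sum was 6.72, 7.27 and 10.2 FPKM in the P0 libraries, 10.2, 3.71 and 7.43 in the P3 libraries, and 2.56 and 5.29 in the P7 libraries. The LV sum was 8.15, 8.67 and 10.6 FPKM at P0, 10.3, 3.90 and 7.23 at P3, and 3.89, 3.96 and 5.06 at P7. Every P7 library lay below every P0 library of its ventricle, and the P3 libraries spread over both ranges. Means in the RV were 8.06 ± 1.86 FPKM for P0 (SD, n = 3), 7.11 ± 3.25 for P3 (SD, n = 3) and 3.92 ± 1.92 for P7 (SD, n = 2). Those in the LV were 9.13 ± 1.27 FPKM at P0, 7.13 ± 3.18 at P3 and 4.30 ± 0.65 at P7 (SD, n = 3 each). The ratio of the P7 mean to the P0 mean was 0.487 in the RV and 0.471 in the LV. Counting only the row with the highest mean in each block, that ratio was 0.543 in the RV and 0.558 in the LV. The sum of all rows but NONMMUT015697 was lower at P7 than at P0 by 64.0% in the RV. There it was 1.12 ± 0.46 FPKM at P7 (SD, n = 2) against 3.11 ± 0.96 at P0 (SD, n = 3). In the LV it was lower by 70.1%, at 1.04 ± 0.34 FPKM against 3.47 ± 0.54 (SD, n = 3 each). The sum is a description of chosen rows and was given no test. The RV ratio over all 30 rows was 0.656 without RV P7 replicate 1 and 0.318 without RV P7 replicate 2. It thus rests on 2 libraries that differ. In whole tissue, fewer cells of a type and less RNA per cell cannot be told apart.

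At P3, replicate 2 was the lowest library in both ventricles, at 3.71 FPKM in the RV and 3.90 in the LV, a level otherwise seen at P7. The other 4 P3 libraries lay between 7.23 and 10.3 FPKM. RV P3 replicate 2 had the lowest implied depth of all libraries, 13.8 M fragments, and the most rows at 0, 49.2%. LV P3 replicate 2 was as low in the sum at an implied depth of 19.0 M fragments, with 44.5% of rows at 0.

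**Figure D2:**
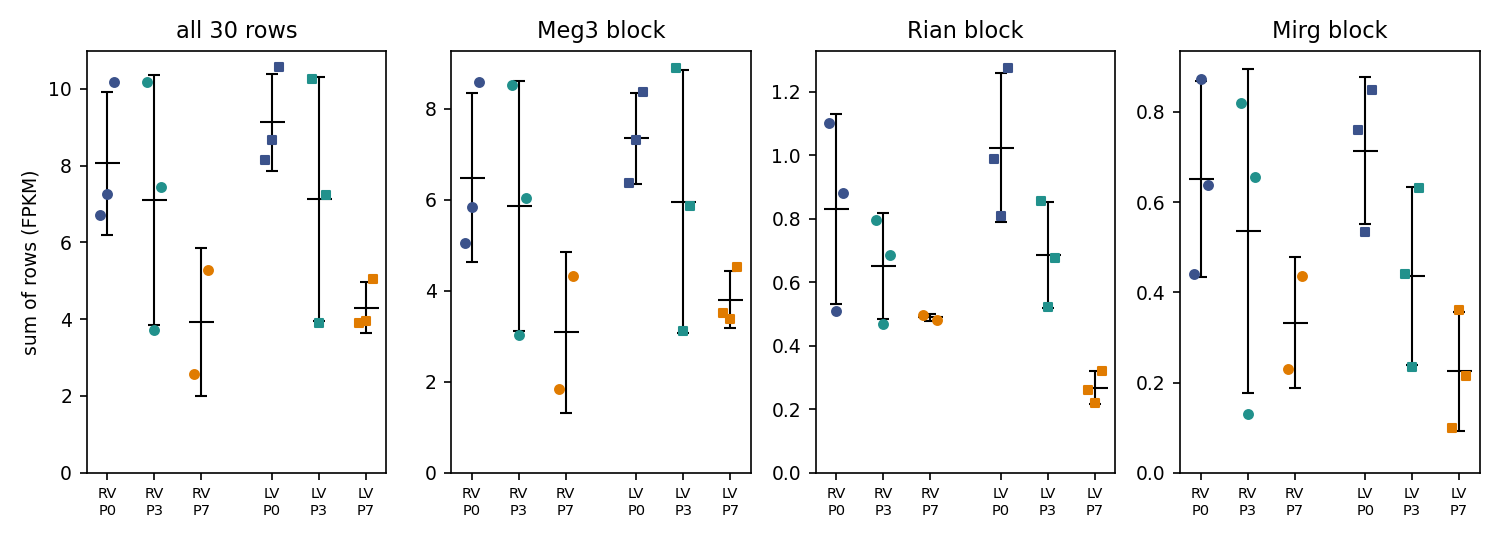
Sum of FPKM per library over all 30 rows and over the rows of the Meg3, Rian and Mirg blocks, for RV (circles) and LV (squares) at P0, P3 and P7. Points are libraries, horizontal bars group means and whiskers 1 SD. In the LV every P7 library lies below every P0 library in all 4 panels, and in each ventricle the lowest P3 library of each panel is replicate 2.

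In each of the 3 named blocks the mean sum at P7 was below that at P0 in both ventricles, and the blocks were not tested against each other. The Meg3 block summed to 1.84 and 4.33 FPKM in the RV P7 libraries, against 5.05, 5.84 and 8.58 in the RV P0 libraries. The LV libraries held 3.52, 3.38 and 4.52 FPKM at P7, against 6.37, 7.31 and 8.38 at P0. Its P7 to P0 ratio of means was 0.475 in the RV and 0.518 in the LV.

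The Rian block, the snoRNA host, summed to 0.497 and 0.481 FPKM in the RV at P7, against 1.10, 0.510 and 0.880 at P0. The LV values were 0.262, 0.219 and 0.322 FPKM at P7, against 0.986, 0.809 and 1.28 at P0. The ratio was 0.589 in the RV and 0.261 in the LV. At P7 both RV libraries thus lay above the 3 LV libraries, while at P0 the ventricles overlapped. In RV P7 replicate 1, however, 0.359 of the 0.497 FPKM came from 1 row, NONMMUT015759. That row was listed at 0 in RV P7 replicate 2 and in all 3 LV P7 libraries. It was above 0 in 7 of the 17 libraries. The RV ratio and the place of RV P7 replicate 1 thus lean on 1 erratic row.

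The Mirg block, the microRNA host, summed to 0.231 and 0.435 FPKM in the RV at P7, against 0.440, 0.874 and 0.637 at P0. For the LV the sums were 0.0983, 0.361 and 0.215 FPKM at P7, against 0.759, 0.534 and 0.849 at P0. The ratio was 0.512 in the RV and 0.315 in the LV. At P7 the ventricles overlapped.

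Single rows were tested with limma on log2(FPKM + 0.1), fitted over all 11079 rows that passed the filter, with Benjamini-Hochberg adjustment over those rows and two-sided tests. A row counts as called at an adjusted p under 0.05. Differences on this scale understate the change of low rows. In the LV at P7 against P0, 3 of the 13 tested rows were lower and 0 higher, where 8.64% of all tested rows were called lower and 2.60% higher. In the RV at P7 against P0, 0 rows were called, where 3.72% of all tested rows were called lower and 1.83% higher. In that RV comparison 4 of the 13 had an unadjusted limma p under 0.05, and the smallest adjusted p was 0.056. Over the mean of both ventricles, which uses 5 P7 and 6 P0 libraries, 6 of the 13 were lower and 0 higher, where 16.1% of all tested rows were called lower and 4.41% higher. That comparison treats RV and LV libraries as independent. If same-numbered RV and LV libraries of an age came from the same animal, its SE and p-values could be too small.

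The median log2 difference of the 13 rows was -0.62 in the RV and -0.90 in the LV, beside -0.27 and -0.32 over all rows tested. Of the 13, 12 lay below 0 in each ventricle, beside 68.7% of all tested rows in the RV and 70.3% in the LV. The exceptions were the Rian row NONMMUT015759 in the RV, at 0.36 ± 0.71 (SE, limma adjusted p = 0.836), and the Meg3 row NONMMUT015698 in the LV. The latter stood at 0.05 ± 0.36 (SE, limma adjusted p = 0.952). Every P7 library lay below every P0 library for 6 of the 13 rows in the RV, where 27.0% of all tested rows did so. In the LV this held for 8 of the 13, beside 26.3% of all tested rows. The 8 include NONMMUT015694 and NONMMUT015712, which reached the filter in 0 P7 libraries. Rows of a block also share position, so these counts are not of independent rows.

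**Figure D3:**
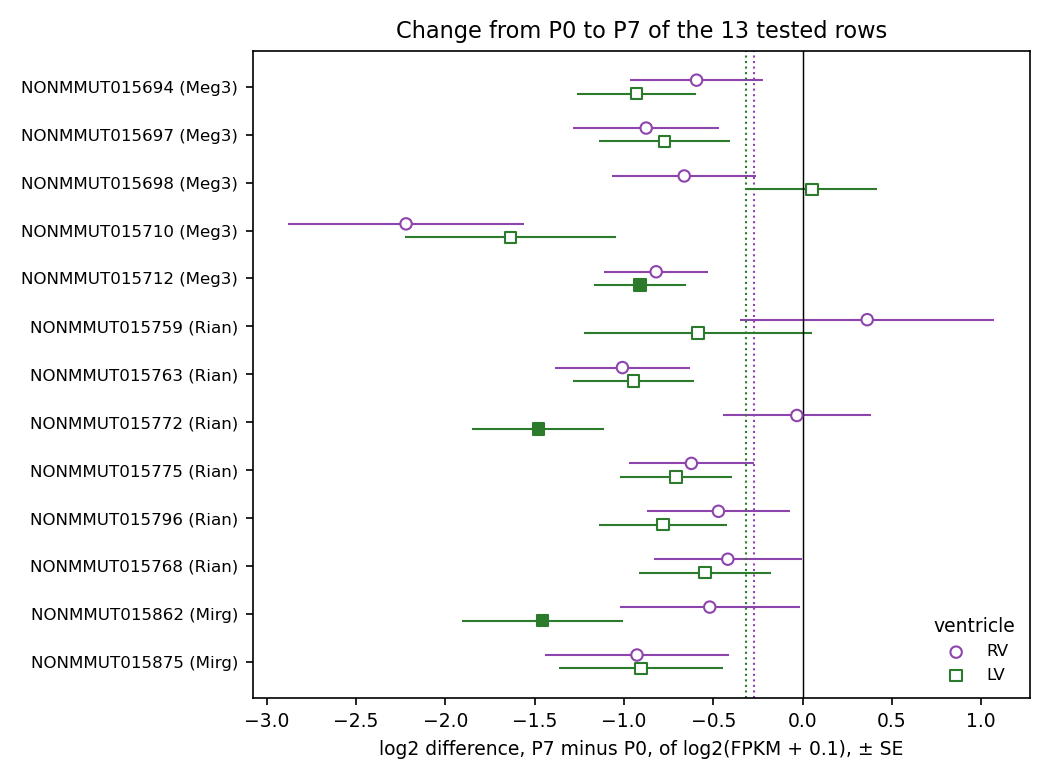
Log2 difference of P7 minus P0 on the log2(FPKM + 0.1) scale, with SE, for the 13 tested rows in RV (circles) and LV (squares), in order along the stretch. Filled symbols are rows called at an adjusted p under 0.05, and dotted lines are the medians of all 11079 tested rows, -0.27 in the RV and -0.32 in the LV. The filled symbols are 3 LV rows, NONMMUT015712, NONMMUT015772 and NONMMUT015862.

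In the Meg3 block, the leading row NONMMUT015697 measured 1.77 and 3.84 FPKM in the RV at P7, against 4.04, 4.82 and 5.97 at P0. Its LV values were 2.85, 3.27 and 3.68 FPKM at P7, against 4.82, 5.66 and 6.49 at P0. The P3 libraries held 7.00, 2.37 and 4.78 FPKM in the RV and 7.46, 2.51 and 4.93 in the LV. In both ventricles P3 replicate 1 lay above every P0 library. No P7 library reached the lowest P0 library of its ventricle. The log2 difference was -0.88 ± 0.41 in the RV (SE, limma adjusted p = 0.243) and -0.77 ± 0.37 in the LV (SE, limma adjusted p = 0.183). It was called over the mean of both ventricles, at -0.82 ± 0.27 (SE, limma adjusted p = 0.0399). That call was lost without any 1 of LV P0 replicates 2 and 3, LV P7 replicates 1 and 2, RV P0 replicates 2 and 3 and RV P7 replicate 1, at adjusted p between 0.0588 and 0.262.

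NONMMUT015710, the second row at the same position, measured 0 and 0.445 FPKM in the RV at P7, against 0.799, 0.641 and 1.83 at P0. The LV libraries measured 0.534, 0.0715 and 0.652 FPKM at P7, against 1.21, 1.25 and 1.29 at P0. Values at P3 were 1.22, 0.431 and 0.999 FPKM in the RV and 1.14, 0.438 and 0.597 in the LV. All 5 P7 libraries lay below all 6 P0 libraries except for RV P0 replicate 2, which at 0.641 lay just under LV P7 replicate 3. Over both ventricles it was lower by -1.93 ± 0.44 on the log2 scale (SE, limma adjusted p = 0.00472). Without RV P7 replicate 1, the library listed at 0, the difference was -1.32 and the adjusted p 0.0611. Within single ventricles it was not called, at limma adjusted p = 0.056 in the RV and 0.0806 in the LV. As a percentage of NONMMUT015697 it averaged 5.80 ± 8.20 (SD, n = 2) in the RV at P7, against 21.3 ± 8.79 at P0 (SD, n = 3). The LV average was 12.9 ± 9.28 at P7, against 22.4 ± 2.69 at P0 (SD, n = 3 each), and the LV P7 libraries ranged widely.

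NONMMUT015712 lies inside the Meg3 block, at chr12:110792097-110795554, and is the only tested Meg3 row with a position of its own. In the RV it measured 0.0319 and 0.00773 FPKM at P7, against 0.146, 0.121 and 0.0716 at P0. The LV libraries listed it at 0 in P7 replicates 1 and 3 and measured 0.0174 FPKM in replicate 2, against 0.0984, 0.0946 and 0.102 at P0. The P3 libraries measured 0.0592, 0.0314 and 0.0433 in the RV and 0.0769, 0.038 and 0.0403 in the LV. All P3 libraries lay below every P0 library of their ventricle and above its P7 libraries, except RV P3 replicate 2, which lay just under RV P7 replicate 1. This row was lower in the LV by -0.91 ± 0.26 (SE, limma adjusted p = 0.0288) and over both ventricles by -0.86 ± 0.19 (SE, limma adjusted p = 0.00402). It was also the only row of the stretch called for any change with age (limma F test, adjusted p = 0.0467), where 10.6% of all tested rows were called. The F test call was lost without any 1 of RV P0 replicates 1 and 2, RV P3 replicates 1 and 3, RV P7 replicate 1, LV P0 replicates 1 and 3, LV P3 replicate 3 and LV P7 replicates 1 and 2. The LV call was lost when any 1 of the 6 LV P0 and LV P7 libraries was left out, at adjusted p between 0.0509 and 0.0901. The call over both ventricles was kept in all 17 such fits. The row reached the filter of 0.1 FPKM in 3 P0 libraries and in 0 P3 or P7 libraries, so the age at which it was high chose it for the test. With no filter its adjusted p was 0.0497 in the LV and 0.00672 over both ventricles.

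The fourth Meg3 row called, NONMMUT015694, was listed at 0 in all 5 P7 libraries. At P3 it measured 0.0511, 0.0361 and 0.0598 FPKM in the RV and 0.0796, 0.0263 and 0.153 in the LV. At P0 it measured 0, 0.0448 and 0.137 FPKM in the RV and 0.0485, 0.0980 and 0.135 in the LV. Over both ventricles the log2 difference was -0.76 ± 0.25 (SE, limma adjusted p = 0.0363), a value set by the added 0.1 FPKM. The row reached the filter in 2 P0 libraries, 1 P3 library and 0 P7 libraries, so its high ages chose it for the test. With no filter it was not called, at an adjusted p of 0.0684. This call was lost when any 1 of 9 libraries was left out, namely LV P0 replicates 2 and 3, RV P0 replicates 2 and 3 and each of the 5 P7 libraries, at adjusted p between 0.052 and 0.111. The fifth tested Meg3 row, NONMMUT015698, was not called in any comparison.

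In the Rian block, NONMMUT015763 was the highest row, with a mean of 0.174 FPKM. The RV values were 0 and 0.154 FPKM at P7, against 0.218, 0.181 and 0.269 at P0. Its LV values were 0.0727, 0.0606 and 0.0948 FPKM at P7, against 0.189, 0.283 and 0.250 at P0. Its P3 values were 0.236, 0.230 and 0.354 FPKM in the RV and 0.146, 0.114 and 0.104 in the LV. The RV mean was thus higher at P3, at 0.273 FPKM, than at P0, at 0.223. All P7 libraries lay below all P0 libraries. Over both ventricles the row was lower by -0.98 ± 0.25 (SE, limma adjusted p = 0.0104). The difference was -0.64 when RV P7 replicate 1 was left out, at an adjusted p of 0.118.

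NONMMUT015772, at the same Rian position, had the largest RV minus LV difference in the P7 against P0 change of the 13 rows. In the LV it was listed at 0 in all 3 P7 libraries, against 0.146, 0.0655 and 0.433 FPKM at P0. In the RV it measured 0 and 0.107 FPKM at P7, against 0.0186, 0.0399 and 0.0917 at P0, so the RV ages overlapped. Its P3 values were 0.0171, 0.0241 and 0.0400 FPKM in the RV and 0.124, 0.105 and 0.112 in the LV. The LV log2 difference was -1.48 ± 0.37 (SE, limma adjusted p = 0.014), again against libraries at 0, and without LV P0 replicate 3 it was -1.01 at an adjusted p of 0.0965. In the RV it was -0.03 ± 0.41 (SE, limma adjusted p = 0.986). The difference between the ventricles in this change, RV minus LV, was 1.45 ± 0.56 (SE) at an unadjusted limma p of 0.0174 and an adjusted p of 1.0, and so was not called. The other tested Rian rows, NONMMUT015759, NONMMUT015768, NONMMUT015775 and NONMMUT015796, had means of 0.0411 to 0.130 FPKM and were not called in any comparison.

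In the Mirg block, NONMMUT015862 measured 0.145 and 0.225 FPKM in the RV at P7, against 0.206, 0.456 and 0.289 at P0. In the LV it measured 0.0295, 0.0316 and 0.144 FPKM at P7, against 0.332, 0.310 and 0.384 at P0. At P3 the values were 0.188, 0.0190 and 0.331 FPKM in the RV and 0.126, 0.0553 and 0.293 in the LV. The LV P7 and P0 groups stood well apart, and the RV P7 and P0 groups overlapped. The LV difference was -1.46 ± 0.45 (SE, limma adjusted p = 0.0436), the RV difference -0.52 ± 0.50 (SE, limma adjusted p = 0.616), and that over both ventricles -0.99 ± 0.34 (SE, limma adjusted p = 0.0448). The difference between ventricles in the change was 0.94 ± 0.67 (SE, limma adjusted p = 1.0). The LV call was lost without any 1 of LV P0 replicates 1 to 3, LV P7 replicates 1 and 2 and RV P0 replicate 3, at adjusted p between 0.0511 and 0.139. The call over both ventricles was lost without any 1 of those, LV P3 replicate 1, RV P0 replicate 2, RV P7 replicate 1 and RV P7 replicate 2, at adjusted p between 0.0503 and 0.170. The other tested Mirg row, NONMMUT015875, averaged 0.113 ± 0.0594 FPKM in the RV at P7 (SD, n = 2), against 0.301 ± 0.0589 at P0 (SD, n = 3). In the LV it averaged 0.152 ± 0.154 FPKM at P7, against 0.334 ± 0.129 at P0 (SD, n = 3 each), and it was not called in any comparison.

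Because rows of a block share position and reads, the whole table was also fitted with values summed per position, which left 10188 positions to test. Over both ventricles the position of each named block was lower at P7 than at P0, where 17.2% of positions were called lower. The log2 difference was -1.02 ± 0.28 for Meg3 (SE, limma adjusted p = 0.0142), -1.08 ± 0.22 for Rian (SE, limma adjusted p = 0.00193) and -1.09 ± 0.35 for Mirg (SE, limma adjusted p = 0.0318). These values too treat RV and LV libraries as independent, so the same limit on SE and p-values applies. In the LV alone the Rian position was called, at -1.61 ± 0.30 (SE, limma adjusted p = 0.0014), where 9.54% of positions were called lower. The LV adjusted p was 0.115 for Meg3 and 0.0578 for Mirg. In the RV alone none of the 3 was called, at limma adjusted p of 0.131 for Meg3, 0.386 for Rian and 0.425 for Mirg, where 3.99% of positions were called lower. The RV minus LV difference in the Rian change was 1.07 ± 0.44 (SE, limma adjusted p = 1.0). In RV P7 replicate 1 the Rian position rested mainly on NONMMUT015759, at 0.359 FPKM.

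The shorter age steps gave no call for any of the 13 rows by limma. At P3 against P0 the median log2 difference of the rows was -0.18 in the RV and -0.40 in the LV, beside -0.04 and -0.09 over all tested rows. There 1 row in each ventricle had an unadjusted p under 0.05, and 2.46% of all tested rows were called in the RV and 1.89% in the LV. At P7 against P3 the medians were -0.49 in the RV and -0.52 in the LV, beside -0.22 in both over all rows. There 2 rows in the RV and 3 in the LV had an unadjusted p under 0.05, and 0.740% and 1.34% of all tested rows were called. Without RV P7 replicate 2, 1 of the 13 rows was called in the RV at P7 against P3.

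Between the ventricles, RV against LV, limma called 0 of the 13 rows at P0, P3, P7 or over the ages. An unadjusted p under 0.05 was seen for 1 row at P0 (NONMMUT015772), 1 at P3 (NONMMUT015763) and 0 at P7 and over the ages. Over all tested rows, 0.00% were called at P0 and 0.00903% in each of the other 3 comparisons. The P7 against P0 change itself differed between RV and LV for 0 of 13 rows, with 1 at an unadjusted p under 0.05, and for 0.00% of all tested rows.

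The median level of the tested rows moved with these values, while the sum over all rows moved the other way. That sum was 26974 to 29779 FPKM in the P0 libraries and 32750 to 36082 in the P7 libraries. The row with the highest mean held 14172 to 16783 FPKM of it at P0 and 19933 to 22890 at P7. The cause of these shifts was not tested. The median of log2(FPKM + 0.1) over all tested rows was -2.19 and -1.91 in the RV P7 libraries and between -2.11 and -2.04 in the LV P7 libraries. It lay between -1.81 and -1.67 in the 6 P0 libraries, and P3 replicate 2 stood at -1.96 in the RV and -2.04 in the LV. Taken relative to this median, the log2 sum of the stretch averaged 4.78, 4.54 and 3.97 in the RV at P0, P3 and P7, and 4.95, 4.58 and 4.20 in the LV. With each library scaled to a common median, the P7 to P0 ratio of the sum was 0.573 in the RV and 0.591 in the LV. On that scale the median log2 difference of the 13 rows was -0.35 in the RV and -0.58 in the LV, beside 0.00 and 0.01 over all rows. The rows called were then 1 in the LV, NONMMUT015772 (adjusted p = 0.0468), 1 over both ventricles, NONMMUT015710 (-1.63, adjusted p = 0.0118), and 0 in the RV. Over all tested rows the LV calls were 509 higher and 399 lower with that scaling, and 288 higher and 957 lower without it.

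**Figure D4:**
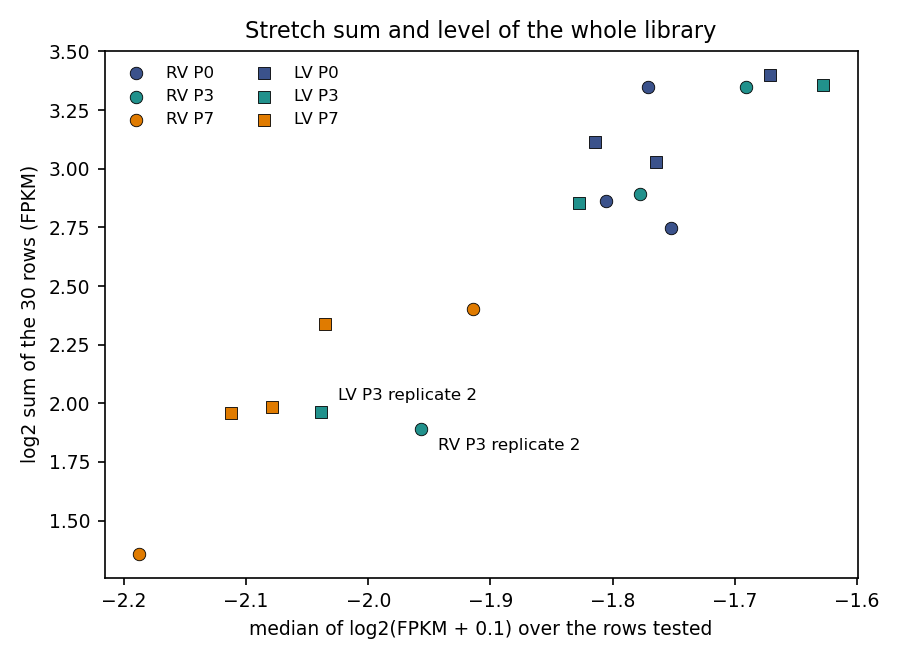
Log2 of the sum of the 30 rows against the median of log2(FPKM + 0.1) over all tested rows, 1 point per library, for RV (circles) and LV (squares) at P0, P3 and P7. The 5 P7 libraries and both P3 libraries numbered 2 lie at the low end of both axes, with the RV P7 library at 2.56 FPKM lowest on both.

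Other rows followed the stretch from library to library. Among 5065 tested rows above the median level, the 5 with the highest Pearson correlation with the log2 sum over the 17 libraries were named. They were NONMMUT008384 at chr11:4980147-4986039 (r = 0.950), NONMMUT020236 at chr14:31990885-31999329 (r = 0.945), NONMMUT063780 at chr7:135111005-135125543 (r = 0.940), NONMMUT039796 at chr2:129030926-129033045 (r = 0.939) and NONMMUT036077 at chr2:22786969-22789238 (r = 0.938). The first averaged 6.35 and 9.80 FPKM in the RV at P7 and P0, and 5.92 and 12.7 FPKM in the LV at P7 and P0. All 5 had lower P7 than P0 means in both ventricles. Rows can share the shift in the library median, so these values describe likeness across libraries and were given no p.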

How the data were processed

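Long noncoding RNA was measured in 17 libraries, made strand-specific and paired-end from total RNA, per the labels' protocols. The submitters' processing notes name STAR 2.4.0j and mm10; no source used here gives the counter, the annotation or the normalization. The authors' deposited tables, 1 for each library, give IDs, positions and a value read here as FPKM from the steps between low values. With the span of each row taken as its length, 57.1% to 60.6% of low values per library fell on such a step. The unit and the implied depths rest on these. The positions differ from those of the annotated genes in GRCm38 (mm10) and are taken to be mm9. Names for 3 blocks rest on spans and gaps that agree, within 5 bases, with the outermost ends of each gene over GENCODE M21 and RefSeq annotations of GRCm38 combined. No cell type markers could be looked up in tables without gene names, so the tissue label was not checked.

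The filter kept rows that reached 0.1 FPKM in 2 or more libraries. Their log2(FPKM + 0.1) values were fitted in limma 3.58.1 (R 4.3.3) over all 17 libraries, with 1 mean for each group, a variance trend and robust moderation. Adjusted p-values are Benjamini-Hochberg over all 11079 rows tested. The fit was tested on simulated data, with changes only in rows of at least median level and noise independent between libraries. That test does not show how well changes in lower rows are found. Implied depth was 13.8 to 20.5 M fragments per library, and p-values measure the spread between these libraries. Rows with a mean of at least 1 FPKM or a call were described library by library. The members and lists were chosen with earlier results of these data known. Alternatives varied the pseudocount, filter, scaling, variance trend, groups fitted, replicate block and summing of rows, and left out each library in turn.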

Additional observations from a re-analysis of the deposited data

How the results depend on the processing

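Counts of called rows depended on settings more than directions did. For P7 against P0 the count in the LV was 3, and it was 0 with a filter of 1 FPKM, which leaves 2 rows to test, 1 with median scaling, and 0 to 5 when 1 library was left out. The 0 came without LV P0 replicate 3, 1 was left without LV P0 replicate 1 or 2 or LV P7 replicate 1 or 2, and the 5 came without either RV P7 library. In the RV the count was 0, and it was 1 with the filter of 1 FPKM and 0 to 2 when 1 library was left out, namely 1 if LV P7 replicate 2 or RV P3 replicate 2 was dropped and 2 if RV P7 replicate 2 was. Over both ventricles the count was 6, and it was 3 with no filter, 2 with the filter of 1 FPKM, 1 with median scaling, and 1 to 7 when 1 library was left out, with 1 without RV P7 replicate 1 and 3 without LV P0 replicate 3, LV P7 replicate 1 or RV P0 replicate 3. For RV P7 against P3 the count without 1 library was 0 to 1. The single row called for any change with age became 2 with a pseudocount of 0.01, with no variance trend, with values summed per position or without both P3 libraries numbered 2, the last chosen after seeing the data. It became 0 with a pseudocount of 1, no filter, median scaling or the replicate block, and 0 to 2 without 1 library. Among the other counts, those between ventricles stayed at 0 under every alternative run. NONMMUT015772 changed sign in the RV at P7 against P0, to 0.0034 with a pseudocount of 1, 0.24 with median scaling, 0.11 with the replicate block, and to values between -0.56 and 0.49 when 1 library was left out (0.16 without RV P0 replicate 3, 0.49 without RV P7 replicate 1). With 1 row per block, the sum averaged 3.01 FPKM in RV P7 against 5.55 in RV P0. The LV averages were then 3.50 at P7 against 6.27 at P0. With median scaling the LV ratio of P7 to P0 was 0.591. With no filter, 1 row beside the stretch was tested. The cause of these shifts was not tested.

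Libraries of the 2 ventricles share replicate numbers. Over 8 pairs, same-numbered libraries deviated together at r = 0.0451 to 0.172, and 8 of 8 correlated best with their own number, a hint from the data and not the design. The numbers were not taken as pairing. The replicate block fits 1 effect per replicate number across all ages, so it does not model RV and LV pairs within an age. With the replicate block, the counts at P7 against P0 were 3 in the LV, 0 in the RV and 4 over both ventricles. Low values limit most rows of the stretch, since their levels lie under 1 FPKM.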
